A study of Homo sapiens with 2 samples.

Results

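Transcript levels were described for 8 genes of ammonia disposal and amino acid breakdown in the established human liver cancer line Huh7 (hepatocellular carcinoma), in 1 library from cells given an shRNA against USP22 and 1 library from cells given a control shRNA. The genes were taken by name from the deposited tables as the urea cycle enzymes CPS1, ASS1, ASL and ARG1 together with OAT, GLUD1, GLUL and HPD, and all 8 were found among the 11976 genes listed. The design asks how transcript levels differ once USP22 is depleted, a deubiquitinase that works on histones as part of SAGA. Both libraries are of the same cell line, and each is an mRNA library made from the total RNA of its own culture. The labels give neither the hairpin, the time after transfection nor a clone. Each group holds 1 library, so there is no replicate error to read a difference against and no p-value, and a gene called higher or lower is so in this pair of libraries only.

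The urea cycle turns ammonia into urea in the liver. CPS1, activated by N-acetylglutamate from NAGS, makes carbamoyl phosphate in mitochondria, OTC joins it to ornithine, and in the cytosol ASS1 and ASL build arginine from citrulline and aspartate, which ARG1 splits into urea and ornithine. OAT takes an amino group from ornithine to form glutamate, and GLUD1 interconverts glutamate with 2-oxoglutarate and ammonia. GLUL fixes ammonia into glutamine, and HPD acts in tyrosine breakdown. In the liver the cycle is mainly periportal, while GLUL marks the hepatocytes around the central vein.

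Levels are in FPKM, the unit the deposited values were read as, since the tables name none. USP22 itself was at 7.67 FPKM in the USP22 shRNA library, against 58.1 FPKM in the control library. Liver identity was present in both libraries, with all 18 hepatocyte markers listed and a summed level of 2201 FPKM in the USP22 shRNA library, against 3478 FPKM in the control library. Of these markers 1 was higher by 2-fold or more and 8 were lower by as much, against 24.1% higher and 12.2% lower over all genes averaging 1 FPKM or more. For other cell types, none of 5 endothelial markers, 4 of 6 stromal markers (summing to 10.8 and 3.43 FPKM in the USP22 shRNA and control libraries), 3 of 10 blood markers (127 and 407 FPKM) and 1 of 5 markers of other epithelia (2.39 and 16.5 FPKM) were listed, and the others are not analysed here. The listed range ran from ACTA2 at 0 in both libraries to LYZ at 93.6 FPKM in the USP22 shRNA library, against 386 FPKM in the control library. The part of these markers in the results below was not tested. In bulk RNA, fewer cells of a type and less RNA per cell cannot be told apart.

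The log2 ratio was taken as log2 of (USP22 shRNA + 1) over (control + 1), and a gene counted as higher or lower at a ratio of at least 2-fold when its mean over both libraries was at least 1 FPKM. Of the 8 genes, 6 passed that minimum and CPS1 and HPD did not. By this rule 1 of the 6 was higher, OAT, and 3 were lower, ARG1, ASL and GLUD1, while ASS1 and GLUL lay inside 2-fold. Over all 10195 genes past the minimum, 24.1% were higher and 12.2% lower, and the median log2 ratio was 0.10, against -0.75 over the 6 genes. The member median depended on the minimum. It was -0.36 over 5 genes at 5 FPKM and -0.25 over all 8 genes with no minimum, against -0.09 and 0.13 over all genes. Summed over all 8 genes the level was 177 FPKM in the USP22 shRNA library, against 247 FPKM in the control library.

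**Figure D1:**
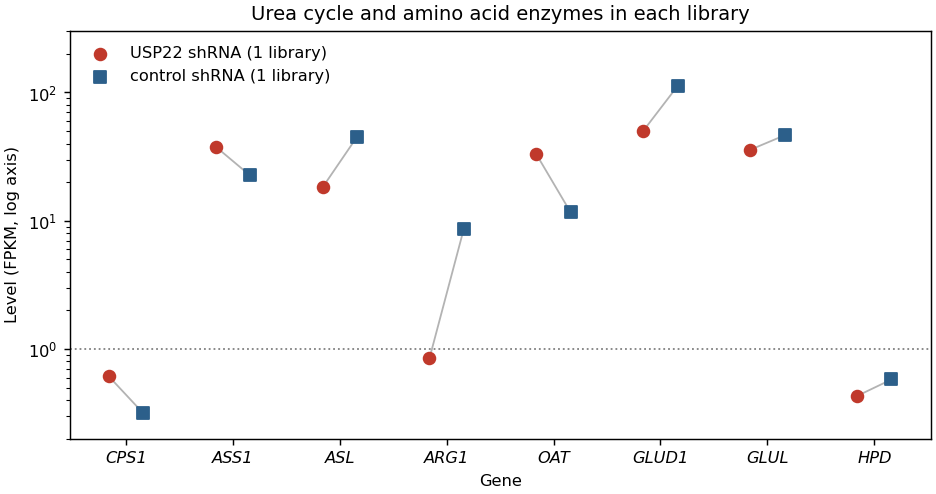
Level of each of the 8 genes in FPKM on a log axis, with the USP22 shRNA library as a red circle on the left and the control library as a blue square on the right of each pair (1 library each, so no error bar), and a dotted line at 1 FPKM. ARG1 has the steepest line, with 0.849 FPKM in the USP22 shRNA library against 8.59 FPKM in the control library, while OAT, ASS1 and CPS1 slope the other way.

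The last step of the cycle had the largest ratio in size among the 8 genes, while the largest difference in level was that of GLUD1, described below. With a pseudocount of 5 the log2 ratio of ARG1 (-1.22) was close in size to that of OAT (1.19). ARG1, the liver arginase (ENSG00000118520.14_2), was at 0.849 FPKM in the USP22 shRNA library, against 8.59 FPKM in the control library, which is 10.1-fold lower as a plain ratio and -2.37 as the log2 ratio with the pseudocount of 1. It had the 65th lowest ratio of the 10195 genes, and by level it stood at rank 9930 in the USP22 shRNA library, against rank 3885 in the control library. ARG2, the mitochondrial arginase encoded by a separate gene, was at 14.9 FPKM in the USP22 shRNA library and 20.5 FPKM in the control library, a log2 ratio of -0.43. The ARG2 level was therefore 17.6 times that of ARG1 in the USP22 shRNA library, against 2.38 times in the control library. The 2 arginases together summed to 15.8 FPKM in the USP22 shRNA library and 29.05 FPKM in the control library.

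The adjacent cytosolic enzymes lay in opposite directions. ASL, argininosuccinate lyase, which releases arginine and fumarate, was at 18.2 FPKM in the USP22 shRNA library, against 44.8 FPKM in the control library, a log2 ratio of -1.25. ASS1, argininosuccinate synthase, which precedes it, was at 37.8 FPKM in the USP22 shRNA library, against 22.6 FPKM in the control library, a log2 ratio of 0.72 that stays inside 2-fold. Their order by level was thus not the same in the 2 libraries, with ASS1 at 2.08 times the level of ASL in the USP22 shRNA library and 0.505 times in the control library. Such a ratio of 2 genes within a library does not depend on how the libraries are scaled to each other.

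The mitochondrial entry of the cycle was at low levels in both libraries. CPS1, which is among the abundant proteins of normal liver mitochondria, was at 0.614 FPKM in the USP22 shRNA library and 0.318 FPKM in the control library, both under the minimum of 1 FPKM. NAGS, which makes the activator of CPS1, was at 0.898 FPKM in the USP22 shRNA library, against 9.28 FPKM in the control library, a log2 ratio of -2.44. OTC is not analysed here. Of the carriers around the cycle, the ornithine carrier SLC25A15 was at 15.6 FPKM in the USP22 shRNA library and 18.5 FPKM in the control library, and the aspartate and glutamate carrier SLC25A13 at 44.5 and 28.9 FPKM in the same order, both inside 2-fold. Of the arginine importers at the cell surface, SLC7A2 was at 20.8 FPKM in the USP22 shRNA library, against 5.004 FPKM in the control library, a log2 ratio of 1.86, and SLC7A1 was at 10.7 FPKM in the USP22 shRNA library and 14.0 FPKM in the control library. In the whole list of the cycle and its carriers 1 of 9 genes past the minimum was higher, SLC7A2, and 3 were lower, NAGS, ARG1 and ASL, with a median log2 ratio of -0.36, against 24.1% higher, 12.2% lower and a median of 0.10 over all genes. Removal of the GC trend described below left 1 higher and 2 lower and a median of -0.23. With that trend removed, 8.44% of all genes were higher and 8.92% lower.

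On the ornithine branch, OAT, the mitochondrial ornithine aminotransferase, was the gene higher by the 2-fold rule, at 32.9 FPKM in the USP22 shRNA library, against 11.6 FPKM in the control library, a log2 ratio of 1.43. OAT consumes ornithine and ARG1 forms it. The ratio of OAT to ARG1 was 38.8 in the USP22 shRNA library and 1.35 in the control library. The 16 genes of ornithine, proline and polyamine metabolism past the minimum had a median log2 ratio of -0.37. Of these, 2 were higher and 4 lower, against 24.1% higher and 12.2% lower over all genes. Removal of the GC trend left 0 higher and 2 lower, against 8.44% and 8.92% of all genes. The median was then -0.06, and 0.02 when the length trend was taken out as well. The other higher gene was AMD1, a decarboxylase of polyamine synthesis, at 17.8 FPKM in the USP22 shRNA library, against 4.79 FPKM in the control library. The lower genes were PYCR3 and PYCR1, reductases that complete proline synthesis, ALDH4A1, which oxidises the product of proline breakdown, and OAZ2, an inhibitor of ornithine decarboxylase, with log2 ratios of -2.07, -1.16, -1.19 and -1.44.

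The glutamate and glutamine enzymes were the most abundant of the 8 genes in the control library. GLUD1, glutamate dehydrogenase, had the highest level of the 8 in both libraries, at 50.3 FPKM in the USP22 shRNA library, against 112 FPKM in the control library, a log2 ratio of -1.14. It made up 28.4% of the summed level of the 8 genes in the USP22 shRNA library and 45.4% in the control library. Its retrocopy GLUD2 was listed at 1.51 FPKM in the USP22 shRNA library and 7.69 FPKM in the control library, a log2 ratio of -1.79, and the sum of both genes had a log2 ratio of -1.20. GLUL, glutamine synthetase, was at 35.8 FPKM in the USP22 shRNA library and 46.3 FPKM in the control library, a log2 ratio of -0.36.

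Around them, the 13 genes of glutamine, glutamate and the transaminases past the minimum had a median log2 ratio of -0.36. Of these, 4 were higher and 3 lower, against 24.1% higher and 12.2% lower over all genes. The counts were again 4 and 3 with the GC trend removed, against 8.44% higher and 8.92% lower over all genes. The importer SLC1A5 (1.22) was then past 2-fold and SLC38A1 was not. The sign of the median turned, to 0.14, and it was 0.16 with a minimum mean of 5 FPKM. SLC38A2, a sodium-coupled importer of neutral amino acids, was at 153 FPKM in the USP22 shRNA library, against 16.9 FPKM in the control library. The importer SLC38A1 and the asparagine synthetase ASNS were higher as well, with log2 ratios of 1.89 and 1.63. Besides GLUD1 and GLUD2, the lower gene was SLC25A22, a mitochondrial glutamate carrier, at 0.619 FPKM in the USP22 shRNA library, against 6.15 FPKM in the control library.

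HPD, the dioxygenase that makes homogentisate from the keto acid of tyrosine, was at 0.431 FPKM in the USP22 shRNA library and 0.579 FPKM in the control library, both under the minimum. The 12 genes of phenylalanine, tyrosine and tryptophan metabolism past it had a median log2 ratio of -0.50. None of them was higher and 3 were lower, against 24.1% higher and 12.2% lower over all genes. Removal of the GC trend left 0 higher and 2 lower in this list, against 8.44% and 8.92% of all genes. The median was then -0.36. HGD, which acts directly after HPD, was at 26.4 FPKM in the USP22 shRNA library, against 62.0 FPKM in the control library, a log2 ratio of -1.20. AFMID, of tryptophan breakdown, and PCBD1, which recycles the cofactor of phenylalanine hydroxylase, had log2 ratios of -1.31 and -1.01, and KYAT3, a transaminase of kynurenine, and GSTZ1, which follows HGD, stood at the upper end with 0.67 and -0.10.

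In the lists that hold none of the 8 genes, the branched-chain amino acid list had 9 of 25 genes higher and 1 lower, with a median log2 ratio of 0.30, against 24.1% higher and 12.2% lower over all genes. With the GC trend removed 3 were higher and 1 lower, against 8.44% and 8.92% of all genes. Those shares apply to the lists that follow as well. The sign of the median then turned, to -0.05, as it did with a minimum mean of 5 FPKM, to -0.07. Its ends were the cytosolic transaminase BCAT1, at 21.9 FPKM in the USP22 shRNA library against 3.40 FPKM in the control library, and BCKDK, the kinase that restrains the branched-chain dehydrogenase, at 0.575 FPKM in the USP22 shRNA library against 6.46 FPKM in the control library. DLD, a subunit shared by that dehydrogenase and the glycine cleavage system, was at 21.3 FPKM in the USP22 shRNA library, against 3.52 FPKM in the control library, and ECHS1, a hydratase of the valine path, had a log2 ratio of -0.67. Of 17 methionine and cysteine genes 3 were higher and 5 lower, and with the GC trend removed none was higher and 1 was lower. The ends of that list were CTH, which makes cysteine, and MTR, methionine synthase, with log2 ratios of 1.83 and 1.15, and the sulfur enzymes TST and ETHE1, with -1.57 and -1.46. Of 15 serine, glycine and threonine genes 2 were higher, DLD and PSAT1, an enzyme of serine synthesis, at 1.42, and 3 were lower, among them SARDH and GAMT, of sarcosine and creatine metabolism, at -2.29 and -1.55. With the GC trend removed 1 was higher and 3 were lower in that list. Of 9 histidine and lysine genes 0 were higher and 1 was lower, GCDH of the lysine path, at -1.03, which came inside 2-fold once the GC trend was taken out, when AMDHD1 of the histidine path (-1.06) was the lower gene. AASS (0.90), AADAT (0.56) and MTHFD1 (-0.56) were the other ends of that list. Over the 115 genes of all 8 lists past the minimum, the 6 genes described above included, 20 were higher and 23 lower, with a median log2 ratio of -0.29, or -0.10 once the GC trend was taken out. Over all genes 24.1% were higher and 12.2% lower, with a median of 0.10, or 0.003 once the GC trend was taken out.

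**Figure D2:**
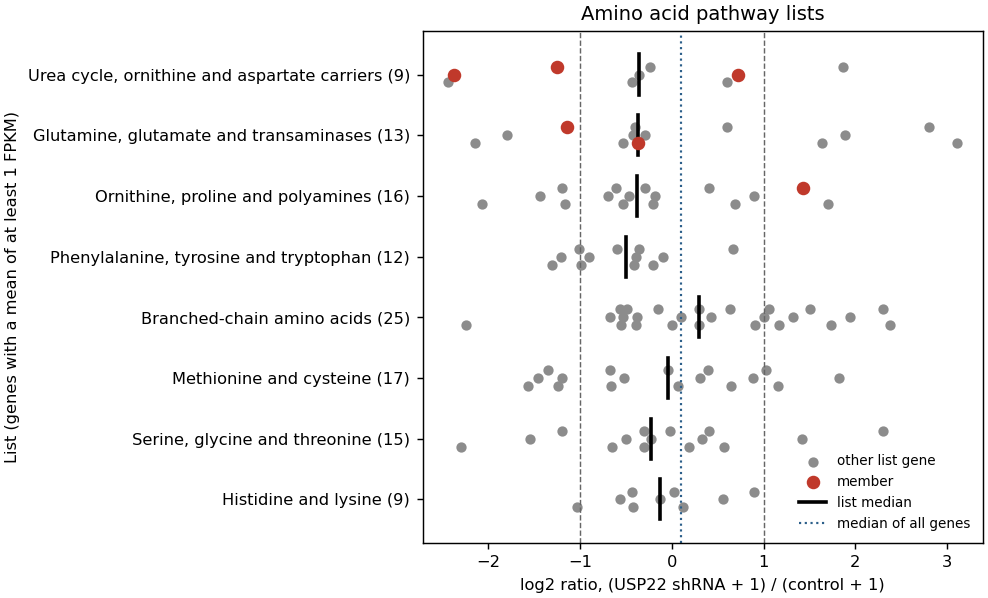
Log2 ratio of each gene with a mean of at least 1 FPKM in the 8 amino acid lists, with the number of genes in brackets, members in red, other genes in grey, the list median as a black bar, dashed lines at 2-fold and a dotted line at the median of all genes. The branched-chain list has a median of 0.30 and lies to the right of the median of all genes. It does not keep that place with the GC trend removed, where its median is -0.05. The phenylalanine, tyrosine and tryptophan list has the lowest median, -0.50. With the GC trend removed its median is -0.36, and the lowest is that of the histidine and lysine list, -0.47.

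Across all genes the ratio followed the GC content of the transcript, with a Spearman rho of -0.70 over 10134 genes of the same 2 libraries, so each gene was also read against genes of like GC content. Genes were split by GC content into 10 groups of equal size. In the group of ARG1, whose transcript has 42.4% GC, the median log2 ratio was 0.95, and 479 of the 1012 other genes were higher and 13 lower. None of those 1012 genes had a ratio as low as ARG1. GLUD1, at 46.4% GC, lay in a group with a median of 0.19, in which 42 of the 1012 other genes had a lower ratio and 58 were at least 2-fold lower.

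The other members read otherwise beside their GC groups. OAT, at 41.2% GC, lay in a group with a median of 1.23, and 405 of the 1012 other genes had a higher ratio than OAT. ASL, at 59.4% GC, lay in a group with a median of -0.56, where 168 of the 1012 other genes had a lower ratio. ASS1, at 57.4% GC, stood at 0.72 in a group with a median of -0.54, where 41 of the 1012 other genes had a higher ratio and 23 were at least 2-fold higher. GLUL, at 49.0% GC, had 231 of 1012 other genes below it. The origin of the trend with GC content was not tested.

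With the GC trend removed by a lowess curve, the log2 ratios were -3.34 for ARG1, -1.55 for GLUD1, 1.25 for ASS1, -0.68 for ASL, 0.32 for OAT and -0.45 for GLUL. The 2-fold rule then called ASS1 as higher and ARG1 and GLUD1 as lower, against 8.44% of all genes higher and 8.92% lower, and ASL and OAT lay inside 2-fold. In the lists, 8 of the 115 genes were then higher and 15 lower. Among non-members named above, SLC38A2 (1.80), ASNS (1.31), BCAT1 (1.07), DLD (1.05), GLUD2 (-1.97), NAGS (-1.75), BCKDK (-1.69), SARDH (-1.63), HGD (-1.54), SLC25A22 (-1.46), PYCR3 (-1.40) and OAZ2 (-1.15) stayed past 2-fold, while SLC38A1 (0.79), SLC7A2 (0.74), AMD1 (0.39), CTH (0.97), MTR (0.54), PSAT1 (0.44), GAMT (-0.96), AFMID (-0.98), TST (-0.88), ETHE1 (-0.78), GCDH (-0.47), ALDH4A1 (-0.59), PYCR1 (-0.53) and PCBD1 (-0.53) did not.

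**Figure D3:**
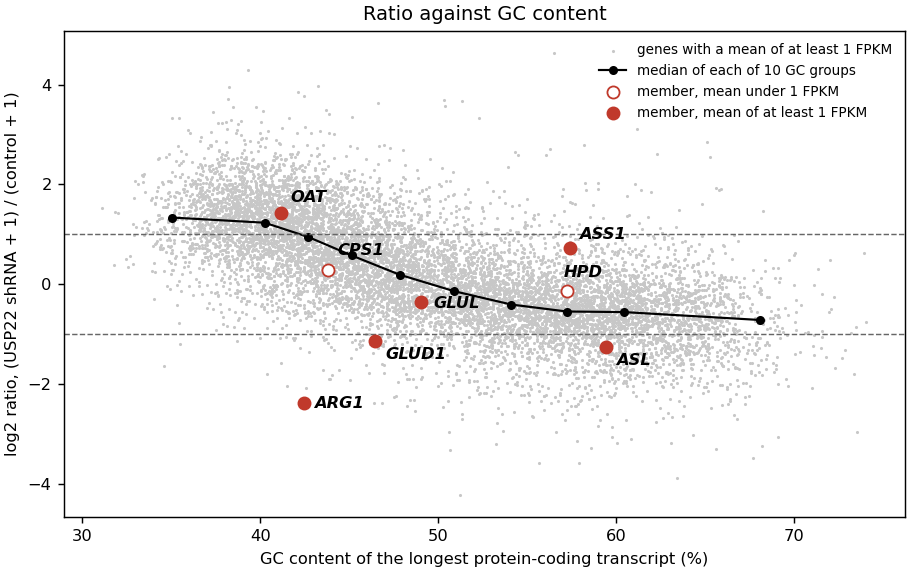
Log2 ratio (vertical axis) against the GC content of the longest protein-coding transcript in percent (horizontal axis), with genes in grey, the medians of 10 GC groups in black, the 8 members in red (open where the mean is under 1 FPKM) and dashed lines at 2-fold. ARG1 lies at -2.37 where the group median is 0.95, GLUD1 at -1.14 where it is 0.19, and ASS1 at 0.72 where it is -0.54, while OAT lies close to its group median of 1.23.

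The promoters of the 4 members past 2-fold are shown because the lower and the higher genes can be compared there with ARG1, the gene with the largest log2 ratio in size. They run from 250 bases before to 50 bases after the start of the gene in RefSeq (GRCh38.p14): ARG1 on the plus strand at chr6:131572976-131573275, ASL on the plus strand at chr7:66075569-66075868, GLUD1 on the minus strand at chr10:87094794-87095093 and OAT on the minus strand at chr10:124418874-124419173. Capitals mark a match to TATAAA.
ARG1: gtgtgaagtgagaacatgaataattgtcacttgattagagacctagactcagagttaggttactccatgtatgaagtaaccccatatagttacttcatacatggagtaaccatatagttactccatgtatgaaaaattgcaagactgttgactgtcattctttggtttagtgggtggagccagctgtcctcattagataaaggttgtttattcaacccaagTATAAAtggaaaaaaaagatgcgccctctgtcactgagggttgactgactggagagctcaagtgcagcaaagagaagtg
ASL: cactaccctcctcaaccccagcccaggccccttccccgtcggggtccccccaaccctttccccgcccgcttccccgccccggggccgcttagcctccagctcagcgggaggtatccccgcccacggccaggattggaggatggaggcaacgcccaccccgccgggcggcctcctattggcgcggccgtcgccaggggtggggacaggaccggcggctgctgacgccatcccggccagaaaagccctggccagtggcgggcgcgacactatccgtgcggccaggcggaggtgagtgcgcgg
GLUD1: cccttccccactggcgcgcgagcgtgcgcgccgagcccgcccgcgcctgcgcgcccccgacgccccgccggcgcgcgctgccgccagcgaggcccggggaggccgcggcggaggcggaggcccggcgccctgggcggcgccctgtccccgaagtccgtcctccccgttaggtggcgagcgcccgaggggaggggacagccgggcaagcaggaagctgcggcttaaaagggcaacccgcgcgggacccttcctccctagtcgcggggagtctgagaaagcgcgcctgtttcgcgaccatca
OAT: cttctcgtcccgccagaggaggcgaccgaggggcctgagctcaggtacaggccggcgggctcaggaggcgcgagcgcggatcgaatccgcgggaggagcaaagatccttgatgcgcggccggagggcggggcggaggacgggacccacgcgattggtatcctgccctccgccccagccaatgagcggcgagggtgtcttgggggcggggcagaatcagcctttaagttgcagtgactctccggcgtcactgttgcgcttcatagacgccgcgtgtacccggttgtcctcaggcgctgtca

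The ARG1 window held 40% GC and 1 CpG, against 74% GC and 30 CpG in ASL, 77.3% and 47 in GLUD1 and 67.3% and 33 in OAT. The median over 35116 promoter windows of this length was 58.7% GC and 14 CpG, and 11.2% of the windows had a lower GC content than that of ARG1. The ARG1 window held TATAAA at position -29 from the start site on the coding strand, a motif present on either strand in 11.5% of all windows, and none of the windows of ASL, GLUD1 and OAT held it. Searched on both strands, the letters TTGCNNAA for C/EBP factors (10.5% of all windows), CAAAGTCCA for HNF4 (0.384%), TGACGTCA for the cAMP response element (1.85%) and TGATGNAA for the amino acid response element (3.62%) were in none of the 4 windows. These are matches of letters and not sites of binding. Of the factors, CEBPA was at 48.9 FPKM in the USP22 shRNA library, against 267 FPKM in the control library, HNF4A at 7.56 FPKM in the USP22 shRNA library, against 17.8 FPKM in the control library, and ATF4 at 260 FPKM in the USP22 shRNA library and 266 FPKM in the control library. With the GC trend removed, their log2 ratios were -1.67, -0.85 and 0.48 in the same order, and only that of CEBPA was past 2-fold.

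Several of these values rest on sequence shared with other genes. In GENCODE 29, 37.3% of the 31-base stretches of the longest GLUD1 transcript also occur in another gene, nearly all of them in GLUD2, and 43.4% of those of GLUD2 occur in GLUD1. The share was 29.95% for ASS1, which has many processed pseudogenes, 26.0% for ASL, most of it in the annotated gene AC068533.4 that overlaps it on the same strand, 14.1% for OAT, 5.74% for GLUL and 0.224% for CPS1, while no stretch of ARG1 or HPD was found elsewhere. GLUD1 overlaps exons of SHLD2 and HPD those of AC079360.1 on the opposite strand. The same annotation has exons of another gene across those of ASNS, ALDH4A1, KYAT3 and PYCR1 on the same strand, and across those of USP22, CEBPA, ARG2, SLC25A22, BCAT1, DLD, OAZ2, TST, ETHE1, GCDH, GSTZ1 and MTHFD1 on the opposite strand. Neither the handling of shared reads nor the use of strand is stated in the labels, which leaves the values of GLUD1, GLUD2, ASS1, ASL, OAT and these genes uncertain to that extent.

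**Figure D4:**
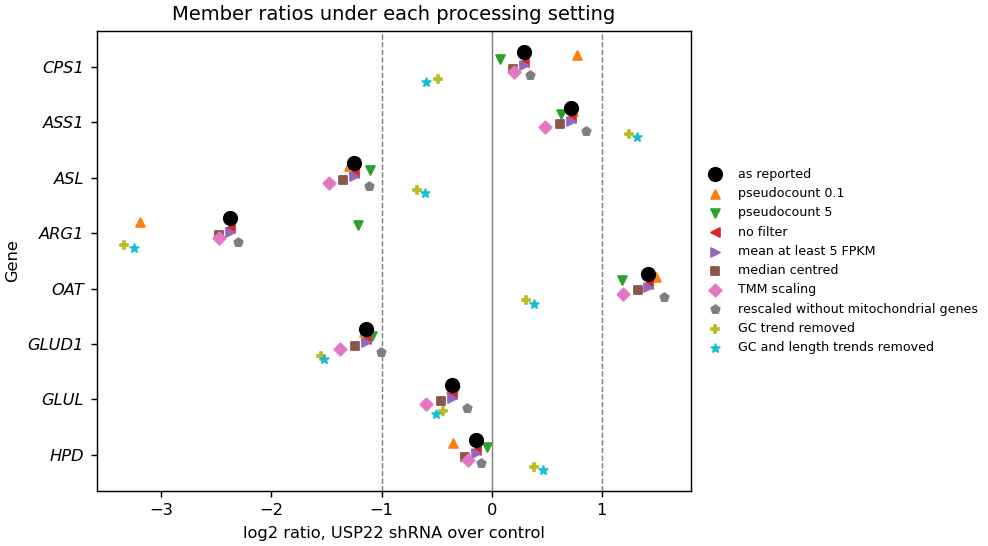
Log2 ratio of the 8 genes (horizontal axis) as reported (black circle) and under 9 other processing settings (coloured symbols), with dashed lines at 2-fold and a line at no difference. ARG1 (from -3.34 to -1.22) and GLUD1 (from -1.55 to -1.002) lie to the left of the 2-fold line in each setting, while ASL, OAT and ASS1 cross a 2-fold line when the GC trend is removed.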

How the data were processed

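Per the labels' protocols, total RNA of 1 USP22 shRNA and 1 control shRNA culture of Huh7 cells was made into libraries with an mRNA kit. StringTie 1.3.0, HISAT2 2.0.4 and, as build, GRCh37 appear in the submitters' processing notes without their roles. The annotation and the choice of genes are not given in the sources used here. The deposited values were read as FPKM made by the authors, an assumption because the table headers name no unit, and TPM cannot be told apart. Low values multiplied by transcript length gave no read steps (at the best of 4000 steps, 23.3% of 1500 values in the USP22 shRNA library and 23.9% in the control library were within 0.1 of a whole number, where no step gives 20%), so depth and its precision are unknown.

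From these values log2 ratios with a pseudocount of 1 were computed in Python 3.11.15, with a minimum mean of 1 FPKM and a rule of 2-fold in size. Where a symbol stood on 2 rows (7 symbols), the more abundant row was used. GC content and length came from the longest protein-coding transcript in GENCODE 29 (GRCh38), found for 11836 of 11976 genes. The lowess trend (30% span, statsmodels 0.14.6) was fitted over all genes past the minimum. It was run on simulated data with a straight-line GC trend, which does not test the form of the trend in these data. No GRCh37 coordinate was used. Promoters of all 8 genes were matched by symbol in RefSeq. Named were the 8 genes, USP22, the urea cycle list and the 2 genes at each end of each list, while other list genes past 2-fold (SLC38A1, SLC1A5, ASNS, PYCR1, ALDH4A1, PCBD1 and AMDHD1) and the markers LYZ and ACTA2 were named after their values were seen. A list gene within the rule is left unreported. The members and lists were chosen with earlier results of these data known. Alternatives were pseudocounts of 0.1 and 5, no minimum or 5 FPKM, median centring, TMM (30% of ratios and 5% of levels trimmed), rescaling without mitochondrial genes, removal of GC or of GC and length trends, and a 1.5-fold rule.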

Additional observations from a re-analysis of the deposited data

How the results depend on the processing

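With 1 library per group no replicate could be left out, and depth is unknown. No paired analysis was possible because each group has 1 library and no test was made. Over 9 alternatives, GLUD1 ranged from -1.55 to -1.002 and kept its side of 2-fold in each. ARG1 was lower in each, at -3.19 with a pseudocount of 0.1, -1.22 with 5, -3.34 with the GC trend removed and -3.25 with GC and length trends removed. At -2.37 it fell under a minimum mean of 5 FPKM. With the GC trend removed, and with GC and length removed, ASL (-0.68, -0.61) and OAT (0.32, 0.39) came inside 2-fold, ASS1 (1.25, 1.33) went past it, and CPS1 (-0.49, -0.60) and HPD (0.39, 0.47), both under the minimum, changed sign. GLUL stayed inside 2-fold, from -0.60 to -0.22. The median over the members past the minimum ranged from -0.99 with TMM scaling to -0.25 with no minimum. It was -0.56 with the GC trend removed.

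Counts depended on the settings. Over all genes, 888 of 10195 were higher and 534 lower with a pseudocount of 5. With a minimum of 5 FPKM, 1184 of the 5871 genes left were higher and 870 lower. With the GC trend removed, 855 of 10134 were higher and 904 lower, and with GC and length removed 828 and 887. At 1.5-fold, 3630 of 10195 were higher and 2464 lower, and 2 members were higher. Of the 115 list genes, 12 were higher and 12 lower with a pseudocount of 5, and 8 and 15 with GC removed. With GC and length removed the counts were 9 and 14, and at 1.5-fold 31 and 32. The median of all genes was -0.09 with the minimum of 5 FPKM and -0.10 with TMM scaling. Of 232 further values for single lists, each for 1 list under 1 setting, 196 stayed within 1.5 times of the reported ones. A list median changed sign in 8 of these values, with a list counted once for each setting. The medians of the urea cycle list, the phenylalanine, tyrosine and tryptophan list and the histidine and lysine list kept their sign in each setting. The cause was not tested.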
